A study of Mus musculus with 4 samples.

Results

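The neurotrophic genes examined here were 9 of the 32285 genes in the deposited matrices, chosen by name: the ligands Bdnf, Ntf3, Gdnf and Nrg1 and the receptors Ngfr, Ntrk2, Ntrk3, Gfra1 and Gfra2. They were followed in 4 single-cell RNA libraries, 1 per group, from the second phalanx (P2) of wild-type FVB/NJ mice aged 8 weeks. The first group was unamputated, homeostatic tissue from the middle of the digit. The other groups were fibrosing stumps taken 12, 17 and 28 days after an amputation through P2 (dpa), a level at which the digit does not regenerate. Each library is labelled as pooled from male and female animals, and propidium iodide sorting had kept live cells before capture of transcript 3' ends in droplets. All groups shared strain, genotype and age, and with 1 library per group no test between groups was possible. Ratios between libraries are therefore given with exact 95% intervals that cover counting error only, and no p-value is given.

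Neurotrophins are secreted proteins that keep neurons alive and guide their axons. Bdnf and Ntf3 act mainly through the receptor tyrosine kinases encoded by Ntrk2 (TrkB) and Ntrk3 (TrkC), and the receptor p75, encoded by Ngfr, binds all mature neurotrophins. Gdnf binds Gfra1, and its relative neurturin binds Gfra2; both receptors are held in the membrane by a lipid anchor and signal through the kinase Ret or through Ncam1. Nrg1, made by axons among other cells, signals through Erbb2 and Erbb3 in Schwann cells, the glia that wrap peripheral axons, and controls their survival and myelination. After a nerve is cut, Schwann cells leave the myelinating state and take on a repair state in which Ngfr, Gdnf and Bdnf are known to be induced.

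The matrices held 50625 barcodes, of which 34951 were kept, with 6514 to 10394 cells and medians of 6654 to 11630 UMIs (transcript molecules) per cell by library. Any 2 libraries shared 19 to 87 barcodes, at most 0.57% of either. Cells with at least 2 Y-linked UMIs and no Xist UMI were called male. They made up 77.8%, 0, 58.4% and 47.1% of the kept cells of the unamputated, 12, 17 and 28 dpa libraries. Cells with at least 2 Xist UMIs and no Y-linked UMI made up 54.3% of the 12 dpa library and 1 cell of the unamputated library. Cells with fewer or mixed UMIs were not called. The data thus go against the label of pooled sexes in every library. In any comparison that uses 12 dpa, the sex of the animals cannot be told apart from the day. Because of this, groups are called by their library below.

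Kept cells fell into 28 clusters, clustered without the neurotrophic genes, and 25 of them were named from marker genes into 16 classes. The Schwann-like class held 270, 245, 104 and 166 cells in the unamputated, 12, 17 and 28 dpa libraries, or 2.60%, 3.76%, 1.31% and 1.64% of the kept cells. Its markers were present in each library: Cdh19, a glial cadherin, lay at 977, 736, 609 and 794 CPM (UMIs of the gene per 1000000 UMIs of the class). Of 12 Schwann cell markers, 11 were detected. Fibroblast markers summed to 7520 to 10700 CPM in Schwann-like cells against 46000 to 65400 CPM in fibroblast-like cells (5 to 8 of the 10 genes at 5 CPM or more), and vascular markers to 13.1 to 28.8 CPM against 6860 to 7740 CPM in their own class. The part of such transcripts from other cells in the Schwann-like values was not tested.

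By the median over libraries, Schwann-like cells had the highest level of 5 of the 9 genes: Gdnf, Ngfr, Gfra1, Gfra2 and Ntrk3. For the first 4 of these, the lowest Schwann-like library lay above the highest library of every other class, although 1 of the 3 clusters within the fibroblast-like class held more Gfra1 at 17 and 28 dpa. Ntrk3 was the exception, since its Schwann-like range of 23.8 to 173 CPM overlapped that of smooth muscle-like cells, 23.1 to 39.6 CPM. The other 4 genes were led elsewhere: Bdnf by hair follicle or nail keratinocyte-like cells, Ntf3 and Ntrk2 by smooth muscle-like and basal keratinocyte-like cells, and Nrg1 by keratinocyte-like and myeloid classes.

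**Figure D1:**
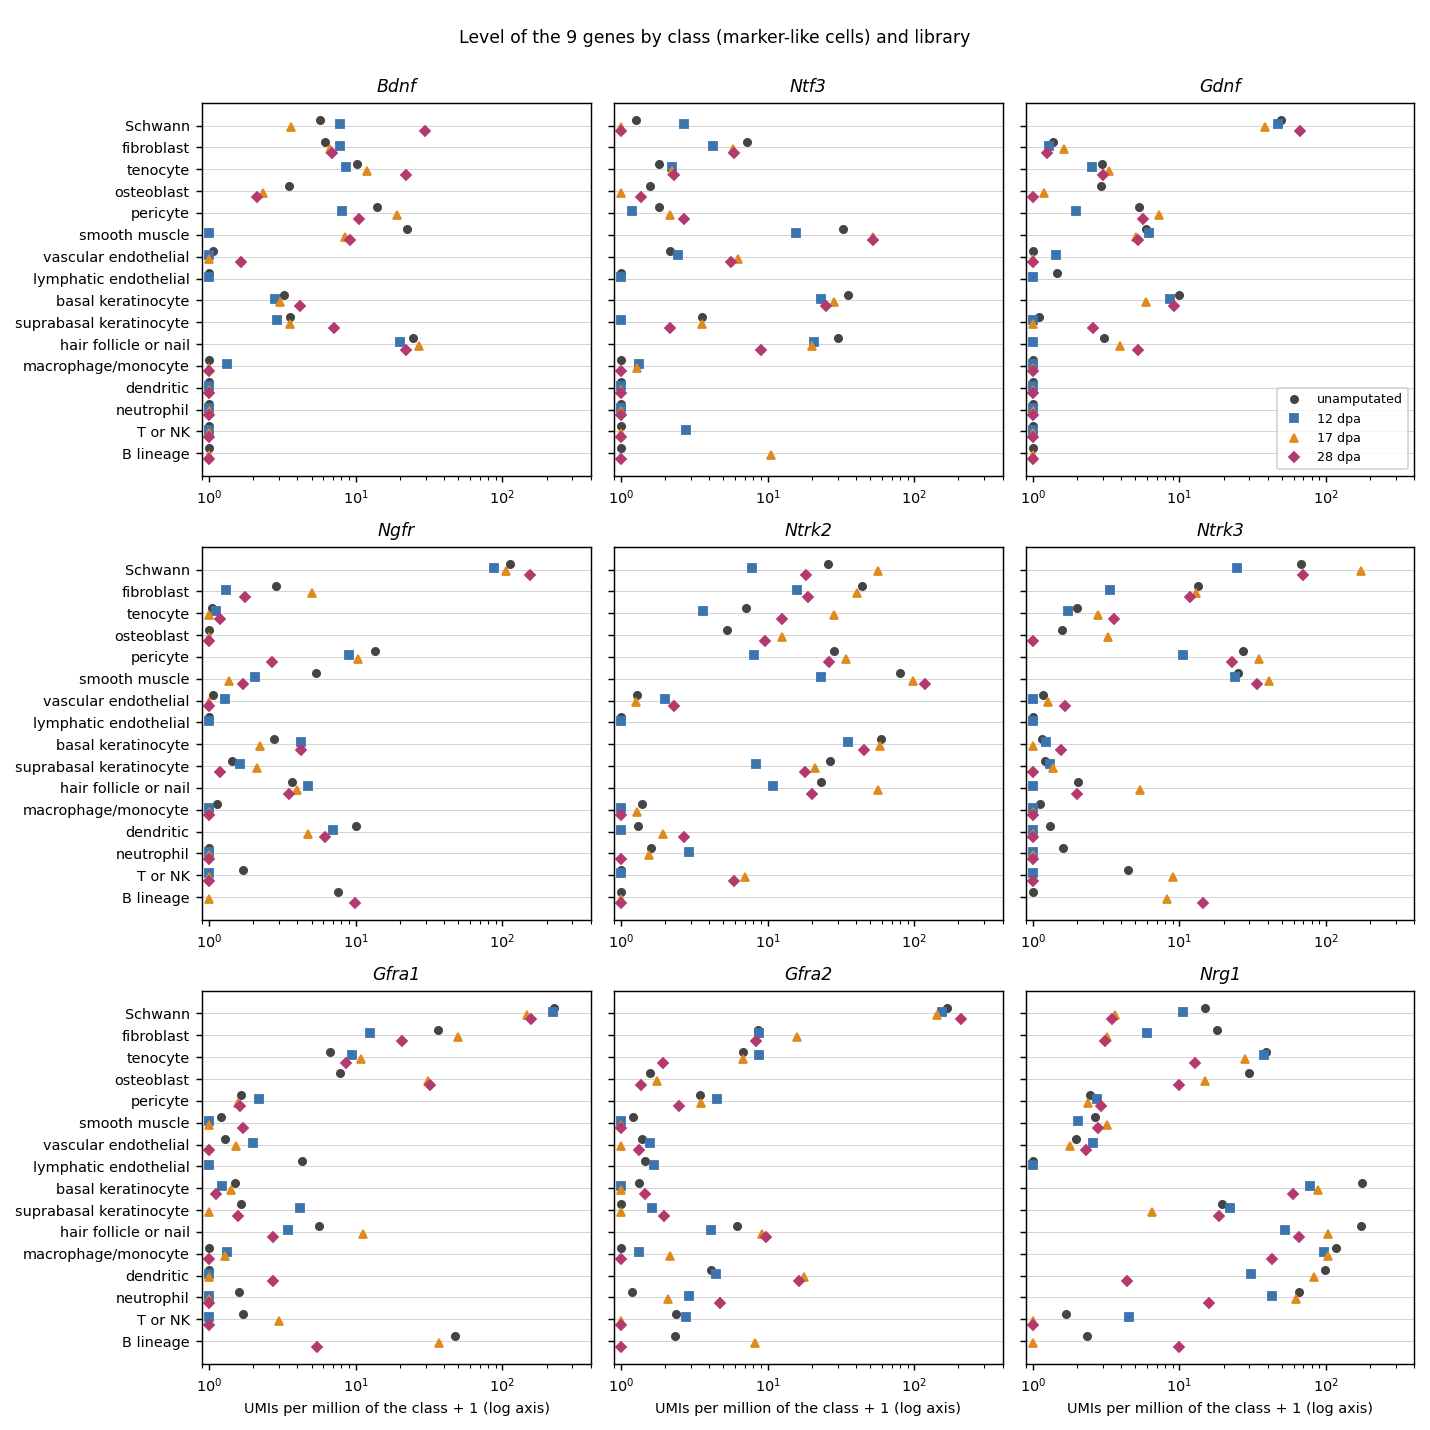
Level of each of the 9 genes (CPM + 1, log axis) in each named class, with a point per library for classes of at least 50 cells. Schwann-like cells lie above every other class as a whole for Gdnf, Ngfr, Gfra1 and Gfra2, while Bdnf, Ntf3, Ntrk2 and Nrg1 are led by other classes.

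Among the ligands, Gdnf (ENSMUSG00000022144, chr15:7810846-7837575, GRCm38, plus strand), a survival factor for motor and sensory neurons, was a Schwann-like transcript in all 4 libraries. Its level there was 48.4 CPM (95% interval 41.5 to 56.2), 45.8 (36.4 to 56.9), 37.1 (24.6 to 53.6) and 65.6 (49.1 to 85.8) in the unamputated, 12, 17 and 28 dpa libraries, the order used throughout. No amputated library differed from the unamputated one beyond counting error. The next class by the median over libraries, basal keratinocyte-like cells, held 4.91 to 8.95 CPM, a range that overlapped the 0.98 to 6.26 CPM of pericyte-like cells. Schwann-like cells contributed 40.5%, 45.8%, 20% and 25.6% of all Gdnf UMIs, although they were at most 3.76% of the cells.

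Bdnf (chr2:109674700-109727007, plus strand), the main TrkB ligand, had its highest median over libraries in hair follicle or nail keratinocyte-like cells, at 23.5, 19.2, 25.8 and 21.0 CPM in the unamputated, 12, 17 and 28 dpa libraries. These values span a narrow range and did not overlap those of pericyte-like cells, 7.05 to 18.2 CPM. Tenocyte-like cells, a class named from tendon cell markers, held 9.14, 7.60, 10.9 and 21.1 CPM. Their 28 dpa library thus reached the keratinocyte level, and Schwann-like cells passed it there. The class joins clusters 8 and 16, described below, with 1 and 3 tenocyte markers among their leading genes. The Bdnf values of the class join both clusters. Tenocyte-like cells were many enough to hold 67.5% of all Bdnf UMIs at 12 dpa and 22.8% to 27.5% in the other libraries. Smooth muscle-like cells held 21.2 CPM in the unamputated library and no Bdnf UMI at 12 dpa, which is at least 6.76-fold lower when 3 counts are taken as the limit of detection in that library. That bound holds for cells named by cluster: with each cell named alone the log2 ratio was -1.99, against -4.47. In Schwann-like cells Bdnf was sparse in the first 3 libraries, with 17, 12 and 2 UMIs, and reached 23 UMIs in 11 of the 166 cells at 28 dpa. That is 28.5 CPM (18.0 to 42.7) against 4.73 CPM in the unamputated library, a 6.02-fold ratio (3.08 to 12.0). A single cell gave 9 of the 23 UMIs, and the level without it was 17.6 CPM.

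Ntf3 (chr6:126101412-126166910, minus strand), the main TrkC ligand, was a transcript of smooth muscle-like and keratinocyte-like cells. Smooth muscle-like cells held 31.5, 14.7, 51.4 and 51.7 CPM and basal keratinocyte-like cells 34.5, 22.3, 27.2 and 24.2 CPM, in library order. The ranges of these classes overlap, so neither can be placed above the other. Hair follicle or nail keratinocyte-like cells held 29.1, 19.8, 19.2 and 8.00 CPM. The log2 ratio at 28 dpa, -1.74, was -0.21 with the looser filter on cells and -0.70 at a Leiden resolution of 2, both under 2-fold. Schwann-like cells had 1, 3, 0 and 0 Ntf3 UMIs.

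Nrg1 (chr8:31814551-32884029, minus strand), the axonal growth factor of Schwann cells, had its highest levels in epithelial and myeloid classes, while tenocyte-like cells held 50.4% of its UMIs at 12 dpa and 5.38% to 15.6% in the other libraries. Basal keratinocyte-like cells held 176, 76.2, 86.7 and 58.3 CPM, in library order. In hair follicle or nail keratinocyte-like cells it stood at 171, 51.4, 102 and 64.5 CPM. Macrophage or monocyte-like cells held 116, 96.5, 102 and 41.9 CPM. That class leaves out a pair of unnamed clusters with 9 and 8 of its 10 markers but leading genes of other lists. Nrg1 stood at 62.2, 34.9, 31.1 and 15.8 CPM in cluster 18, led by Acp5, in library order. In cluster 21, led by F13a1 and Folr2, it stood at 9.20, 14.4 and 5.37 CPM in the unamputated, 17 and 28 dpa libraries. Cluster 21 held 1675 cells at 28 dpa, against 140 in the named class. In the basal, hair follicle or nail and macrophage or monocyte-like classes the unamputated library was the highest, and the 28 dpa library of the macrophage or monocyte-like class was 2.77-fold below it (2.01 to 3.92). That log2 ratio, -1.45, ran from -3.68 to -1.36 over the alternative settings. The macrophage or monocyte-like class joined 3 clusters in differing shares: in cluster 0, with Ly6c2 and Plac8, Nrg1 stood at 275, 237 and 76.7 CPM in the unamputated, 17 and 28 dpa libraries, and in cluster 19, with Apoe and C1qb, at 75.1, 108, 129 and 53.2 CPM. In cluster 19 the unamputated library was thus not the highest. The third, cluster 7, was led by cell cycle genes, held 24 of the 725 class cells in the unamputated library and 25 of the 140 at 28 dpa, and had no Nrg1 UMI in either. When each cell was named alone by its markers, the hair follicle or nail log2 ratio went from -1.71 to -0.15 at 12 dpa and from -1.39 to 0.34 at 28 dpa, and the dendritic-like ratio at 12 dpa from -1.66 to -0.16. Single cells weighed on some of these sums: 1 cell gave 166 of the 347 macrophage or monocyte-like UMIs at 17 dpa (53.5 CPM without it), and 1 cell gave 299 of the 2103 basal keratinocyte-like UMIs of the unamputated library (152 CPM without it). Dendritic-like cells held 97.0, 29.9, 81.4 and 3.43 CPM, of which 57 of 87 UMIs at 17 dpa came from 1 cell (28.7 CPM without it).

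The lower Nrg1 level after amputation was shared by most classes. Among classes with at least 5 CPM in either library, Nrg1 was lower than in the unamputated library in 9 of 10 classes at 12 dpa, 11 of 12 at 17 dpa and 12 of 13 at 28 dpa. At 28 dpa the log2 ratio ran from -4.47 in dendritic-like cells to 2.09 in B lineage-like cells, the only class in which it was higher, from 1 UMI in the unamputated library and 2 UMIs at 28 dpa. Fibroblast-like cells held 17.1, 5.06, 2.19 and 2.09 CPM, and tenocyte-like cells 37.9, 36.8, 26.8 and 11.7 CPM.

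The tenocyte-like class joined a pair of clusters in different proportions. Cluster 8, with Chad, Igf2 and Omd, held 321 of the 984, 66 of the 1904, 482 of the 802 and 213 of the 592 tenocyte-like cells in library order, and cluster 16, with C1qtnf3, Tnn and Scx, held the others. In cluster 16 Nrg1 stood at 34.3, 37.4, 8.49 and 7.12 CPM, and in cluster 8 at 48.6, 14.4, 47.2 and 25.5 CPM. The clusters thus differed in which libraries were low, cluster 16 being low at 17 and 28 dpa and cluster 8 at 12 and 28 dpa. The tenocyte-like Nrg1 log2 ratio at 28 dpa, -1.62, was -0.32 with the looser filter on cells, where no cluster led by Chad was named tenocyte-like. The Nrg1 gene spans 1070 kb, and in the 13 classes measured for it at 28 dpa 43.8% to 94.6% of all genes longer than 200 kb were also lower; the part of gene length in the Nrg1 values was not tested.

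**Figure D2:**
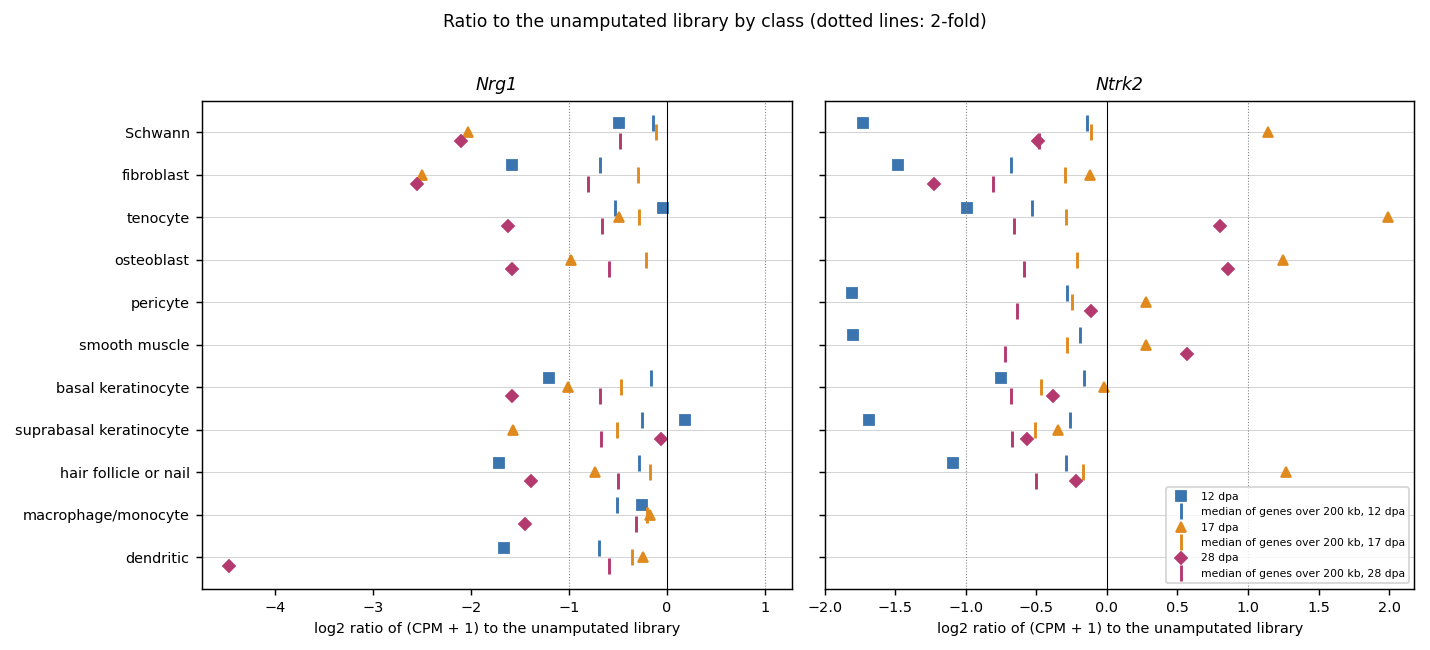
Log2 ratio of (CPM + 1) of Nrg1 (left) and Ntrk2 (right) in the 12, 17 and 28 dpa libraries to the unamputated library, in 11 named classes, with short vertical lines for the median of genes longer than 200 kb. Nrg1 lies below 0 in every class drawn at 28 dpa, and Ntrk2 in all 8 classes drawn at 12 dpa.

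Among the receptors, Ngfr (ENSMUSG00000000120, chr11:95568818-95587735, minus strand), which encodes p75, was highest in Schwann-like cells in every library. Its level was 112 CPM (101 to 124), 86.0 (72.8 to 101), 105 (82.8 to 130) and 154 (128 to 183), in library order. The 28 dpa library was the highest, 1.37-fold above the unamputated one (1.11 to 1.68), and the 12 dpa library the lowest, at 0.766 of it (0.632 to 0.926). Both ratios exceed counting error but stay under 2-fold, and the spread between animals is unknown. Schwann-like cells held 60.1%, 65.5%, 32.8% and 60.2% of all Ngfr UMIs. Pericyte-like cells came next by the median over libraries, at 12.6, 8.03, 9.38 and 1.70 CPM. They were 7.41-fold lower at 28 dpa than in the unamputated library (3.66 to 17.5). At 28 dpa they lay below dendritic-like cells, which held at least 3.74 CPM in every library.

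Gfra1 (ENSMUSG00000025089, chr19:58235604-58455909, minus strand), the receptor of Gdnf, lay at 224 CPM (208 to 240) and 219 CPM (198 to 242) in Schwann-like cells of the unamputated and 12 dpa libraries. It was 146 CPM (120 to 176) and 156 CPM (130 to 186) in those of 17 and 28 dpa. The intervals of the later pair lie below those of the earlier pair. Gfra1 spans 220 kb, and Schwann-like genes longer than 200 kb had median log2 ratios of -0.14, -0.11 and -0.48 at 12, 17 and 28 dpa. The part of gene length in the Gfra1 values was not tested. Schwann-like cells held 51.6% and 52.8% of Gfra1 UMIs in the first 2 libraries but 7.30% and 16.3% in the last 2, where fibroblast-like cells held 72.1% and 60.8%. Osteoblast-like cells, the bone-forming cells, held 6.79 CPM in the unamputated library and 30.3 and 31.3 CPM at 17 and 28 dpa, 4.46-fold (3.08 to 6.63) and 4.61-fold (3.08 to 7.05) higher. As a mean of per-cell CPM, these log2 ratios of 2.01 and 2.05 were 0.91, under 2-fold, and 1.19. The 12 dpa library held 14 such cells and gives no value.

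Gfra2 (ENSMUSG00000022103, chr14:70890120-70979838, plus strand), the neurturin receptor, lay at 165 CPM (152 to 179), 153 (136 to 173), 142 (116 to 171) and 207 (177 to 241) in Schwann-like cells, in library order. Only the 28 dpa library differed from the unamputated one beyond counting error, at 1.25-fold (1.05 to 1.49). No other class passed 16.8 CPM, which dendritic-like cells reached at 17 dpa with 18 UMIs.

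Gdnf, Ngfr and Gfra1 are the Schwann-like genes for which RefSeq (GRCm38.p6) gave a promoter window, and the 250 bases before their starts are shown because these genes were highest in this class. Capitals mark a GC box (GGGCGG, read on both strands); a SOX-type motif (ACAAAG or ACAATG, both strands) was searched as well and is absent from these 3 windows.
Ngfr, chr11:95587699-95587948, minus strand: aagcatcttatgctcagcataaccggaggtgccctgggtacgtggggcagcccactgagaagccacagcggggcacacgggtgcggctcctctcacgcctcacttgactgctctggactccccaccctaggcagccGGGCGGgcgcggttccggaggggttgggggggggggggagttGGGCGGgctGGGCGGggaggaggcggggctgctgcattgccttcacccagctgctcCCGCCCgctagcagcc
Gfra1, chr19:58455399-58455648, minus strand: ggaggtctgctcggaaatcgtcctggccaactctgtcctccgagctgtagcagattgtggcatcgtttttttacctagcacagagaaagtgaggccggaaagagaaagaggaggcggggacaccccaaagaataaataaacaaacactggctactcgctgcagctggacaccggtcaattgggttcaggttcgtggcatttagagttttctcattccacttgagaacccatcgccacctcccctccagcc
Gdnf, chr15:7809798-7810047, plus strand: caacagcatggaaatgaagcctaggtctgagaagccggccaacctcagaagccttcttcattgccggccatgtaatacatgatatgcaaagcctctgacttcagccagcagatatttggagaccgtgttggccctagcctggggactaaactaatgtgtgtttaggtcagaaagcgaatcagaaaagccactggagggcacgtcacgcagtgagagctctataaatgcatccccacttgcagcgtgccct
The Ngfr window held 4 GC boxes and a G and C content of 70.4%, against a median of 52.4% over all windows. At least 3 GC boxes were found in 8.47% of the 32851 windows of this length, and at least 1 in 32.7%. A SOX-type match was found in 25.2% of all windows and in 2 of the 14 windows of the 6 neurotrophic genes with an entry, 1 of them before Ntrk2. These matches describe letters and show no binding. Another listed Gdnf start, chr15:7813477-7813726, held no match either.

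The Trk receptors spanned a wider range between libraries than the Schwann-like genes above. Ntrk3 (chr7:78175959-78738012, minus strand), the Ntf3 receptor, lay at 66.0 CPM (57.8 to 74.9), 23.8 (17.1 to 32.1), 173 (145 to 206) and 68.1 (51.3 to 88.6) in Schwann-like cells, in library order. The 12 dpa library was thus 2.78-fold lower than the unamputated one (1.99 to 3.95) and the 17 dpa library 2.63-fold higher (2.11 to 3.27), while the 28 dpa library did not differ from it beyond counting error (1.03-fold, 0.755 to 1.39).

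Ntrk2 (chr13:58806569-59133970, plus strand), the Bdnf receptor, was likewise lowest at 12 dpa and highest at 17 dpa in Schwann-like cells. It lay at 24.8 CPM (19.9 to 30.5), 6.79 (3.51 to 11.9), 55.6 (40.1 to 75.2) and 17.3 (9.48 to 29.1) in the unamputated, 12, 17 and 28 dpa libraries. The 12 dpa library was 3.65-fold lower than the unamputated one (1.99 to 7.33), and the 17 dpa library 2.24-fold higher (1.52 to 3.27). When no doublets were removed, the 17 dpa log2 ratios were 0.78 for Ntrk2 and 0.88 for Ntrk3, under 2-fold, against 1.14 and 1.38.

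Smooth muscle-like and basal keratinocyte-like cells held more Ntrk2 than Schwann-like cells in every library. Smooth muscle-like cells held 79.1, 22, 96.5 and 118 CPM, basal keratinocyte-like cells 58.1, 34.2, 57.2 and 44.5 CPM, and pericyte-like cells 27.3, 7.05, 33.2 and 25.1 CPM. In each of these classes the 12 dpa library was the lowest. The lower Ntrk2 level at 12 dpa was present in all 8 classes that reached 5 CPM in either library, with log2 ratios from -1.81 in pericyte-like cells to -0.75 in basal keratinocyte-like cells. Ntrk3 was lower at 12 dpa in 4 of 4 such classes, though by only -0.06 in smooth muscle-like cells, where it stood at 24.1 and 23.1 CPM. In the 8 classes measured for Ntrk2, 65.8% to 91.9% of genes longer than 200 kb were lower at 12 dpa, with median log2 ratios of -0.68 to -0.14; Ntrk2 spans 327 kb and Ntrk3 562 kb. The 12 dpa library was also the one without cells called male, and the part of sex or of gene length in these ratios was not tested. At 17 dpa Ntrk2 was higher than in the unamputated library in 7 of 10 classes, and in tenocyte-like cells it was 27.5 against 6.16 CPM, 4.47-fold higher (3.65 to 5.50), with a log2 ratio of 1.99 that was 1.02 under the looser filter on cells. Under that filter no cluster led by Chad was named tenocyte-like, and an osteoblast-like cluster of 559, 76, 865 and 621 cells was found, so the tenocyte-like class was made up differently there. Within the tenocyte-like clusters, Ntrk2 stood at 17.8, 7.20, 52.9 and 38.9 CPM in cluster 8 and at 2.25, 2.48, 4.88 and 2.46 CPM in cluster 16, in library order. Cluster 8, the one with more Ntrk2, was also the larger of the pair at 17 dpa, and Ntrk2 was higher at 17 dpa than in the unamputated library within each cluster. The part of cluster makeup in the class ratio was not tested.

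**Figure D3:**
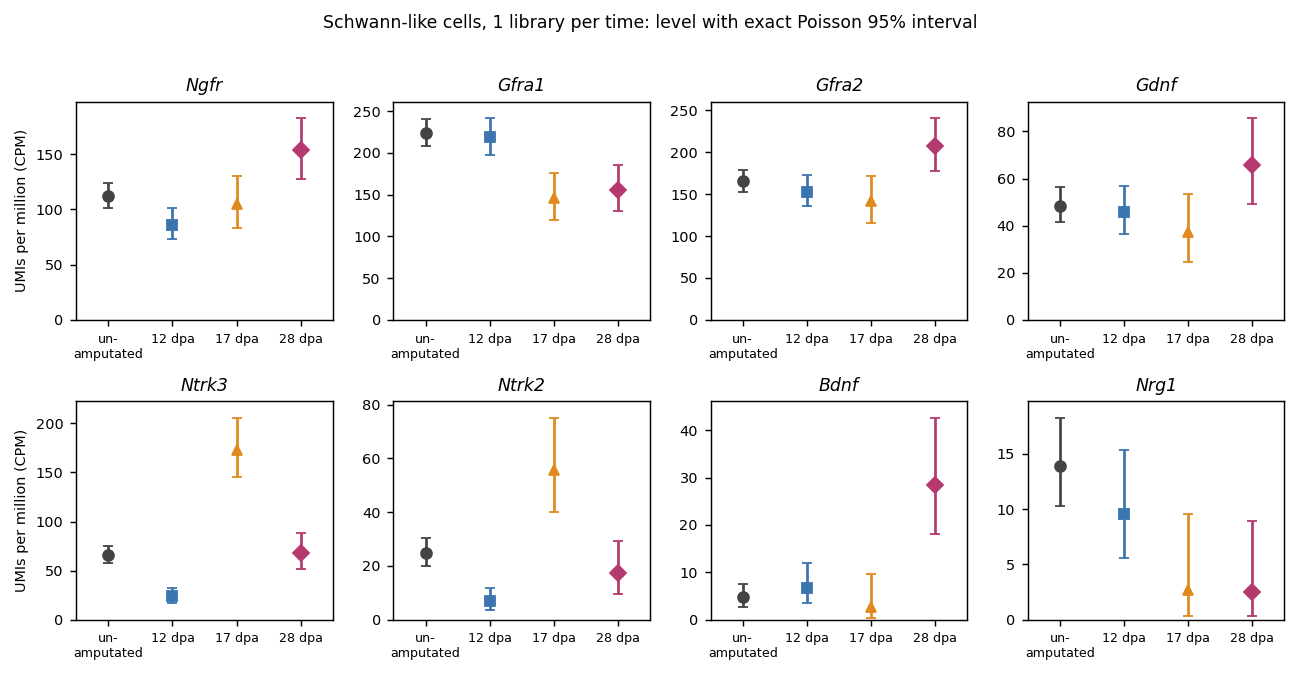
Level of each gene (CPM) in Schwann-like cells of the 4 libraries, with exact Poisson 95% intervals as error bars. Ntrk2 and Ntrk3 are lowest at 12 dpa and highest at 17 dpa, Gfra1 is lower at 17 and 28 dpa, and Bdnf is highest at 28 dpa.

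At 12 dpa, 2 of the 8 neurotrophic genes with at least 5 CPM in either library were past 2-fold, Ntrk2 and Ntrk3, both lower; 5.11% of all 11138 genes tested were past 2-fold there. At 17 dpa it was 3 of 7, Ntrk2 and Ntrk3 higher and Nrg1 lower, against 10.6% of 11227 genes. At 28 dpa it was 2 of 8, Bdnf higher and Nrg1 lower, against 12.6% of 11056 genes. The median log2 ratio of the neurotrophic genes was -0.24, -0.22 and 0.18 at 12, 17 and 28 dpa, against -0.07, -0.037 and -0.081 over all genes tested. The Schwann-like Nrg1 calls rest on 50 UMIs in the unamputated library, of which 1 cell held 23 (13.9 CPM with it and 7.59 without it), and on 2 UMIs each at 17 and 28 dpa (2.65 and 2.48 CPM). Without the myelinating sub-cluster described next, the Nrg1 log2 ratio turned from -2.03 to 0.06 at 17 dpa and from -2.10 to 0.32 at 28 dpa.

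Schwann-like cells were split further into 5 sub-clusters, without use of the neurotrophic genes or their partners. Sub-cluster 2, with Prx, Ncmap and Cldn19 among its leading genes, was myelinating Schwann-like, and made up 12.6%, 6.94%, 26.9% and 9.04% of the Schwann-like cells in library order. Sub-cluster 0 was led by Lyz2, a gene known from myeloid cells, and Abca8a, with C4b, Apod and Scn7a among its top 10 genes (25.6%, 35.1%, 26.0% and 48.2%), sub-cluster 1 by Cfap299, with Pappa, Edil3 and Pcdh20 among its top 10 (46.7%, 44.5%, 13.5% and 13.9%), sub-cluster 3 by cell cycle genes, and sub-cluster 4 by the early response and chemokine genes Ccl2, Cxcl2 and Atf3 (8.52%, 6.94%, 30.8% and 27.1%). The makeup of the class thus differed between the libraries, with sub-clusters 2 and 4 taking a larger share at 17 dpa than in the unamputated library.

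The neurotrophic genes were spread unevenly over these sub-clusters. Over the 4 libraries together, Ngfr lay at 43.3 CPM in the myelinating sub-cluster and at 95.8 to 145 CPM in the others, and Gfra2 at 65.0 CPM there against at least 167 CPM elsewhere. Gfra1 ran the other way, at 318 CPM in the myelinating sub-cluster and 128 to 197 CPM in the others. Gdnf lay at 96.9 CPM in sub-cluster 4 and at 14.3 CPM in sub-cluster 0, but this order did not hold at 17 dpa, where sub-cluster 4 held 22.2 CPM and sub-cluster 0 held 36.0 CPM. In the unamputated library, 1 cell gave 17 of the 41 Gdnf UMIs of sub-cluster 4 (126 CPM with it and 79.5 without it). Summed over libraries, Nrg1 lay at 42.4 CPM in myelinating cells against 1.96 to 11.5 CPM elsewhere, and 44 of its 50 UMIs in the unamputated library came from 5 of the 34 myelinating cells. At 17 dpa the 28 myelinating cells held 1 Nrg1 UMI.

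Summed over the libraries, both Trk receptors were highest in sub-clusters 2 and 4, a rank that did not hold in every library: Ntrk3 lay at 132 and 153 CPM there against 26.3 to 40.4 CPM in the others, and Ntrk2 at 38.6 and 78.9 CPM against 6.52 to 11.5 CPM. These are the sub-clusters whose share was larger at 17 dpa, the library with the highest Trk levels. The part of this makeup in the class values was not tested. At 12 dpa, where each of them held 17 cells, sub-cluster 2 had 21.3 CPM of Ntrk3 against 22.3 CPM in sub-cluster 1, from 3 and 18 UMIs, so the order at 12 dpa rests on few UMIs. At 28 dpa the 15 cells of sub-cluster 2 had 1 Ntrk2 UMI. Within sub-clusters, Ntrk3 stood at 95.2 CPM in the unamputated library and 243 CPM at 17 dpa in the myelinating cells, while in sub-cluster 4 the 17 dpa library, at 169 CPM, lay below the unamputated one. In sub-cluster 0 it stood at 32.7 and 151 CPM, with 10 of 21 UMIs at 17 dpa from 1 cell. Ntrk2 stood at 35.3 CPM in the unamputated library and 67.8 CPM at 17 dpa in sub-cluster 2, and at 117 and 88.7 CPM in sub-cluster 4. In sub-cluster 0 Ntrk2 stood at 6.54 and 21.6 CPM, from 4 and 3 UMIs. The Bdnf UMIs of the 28 dpa library lay mostly in sub-cluster 1, where 6 of 23 cells held 16 UMIs (90.6 CPM, or 42.2 without the cell that held 9 of them) against 9.13 CPM in the unamputated library. Sub-clusters 2 and 4 held no Bdnf UMI in any library.

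**Figure D4:**
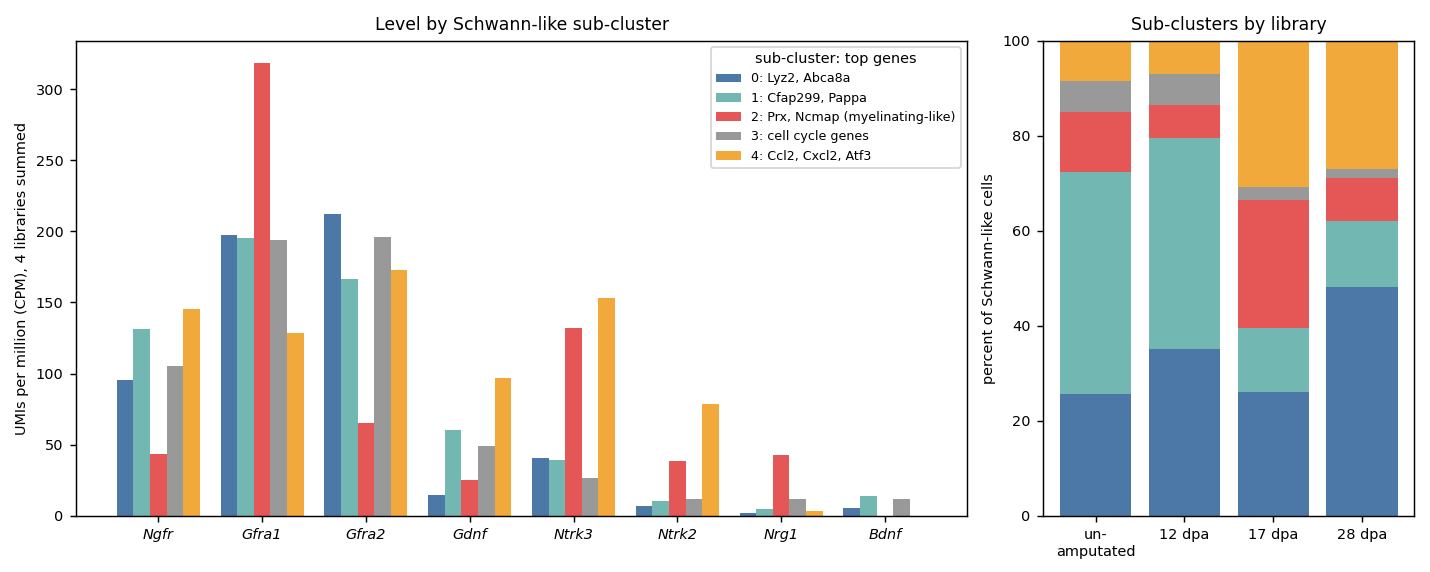
Bars, left, level of 8 of the genes (CPM over the 4 libraries summed) in the 5 Schwann-like sub-clusters; stacked bars, right, percent of Schwann-like cells in each sub-cluster by library. In these sums Ngfr and Gfra2 are lowest and Gfra1 highest in the myelinating sub-cluster 2, and the Nrg1 bar of that sub-cluster rests on 44 UMIs of the unamputated library and 1 of 17 dpa.

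Shares of cells with a UMI were set against those in macrophage or monocyte-like cells, a class that held little of these genes except Nrg1. Each cell of at least 2000 UMIs was thinned to 2000 UMIs, and shallower cells were left out of the thinned shares. Ngfr was then seen in 15.8%, 13.9%, 18.2% and 22.4% of Schwann-like cells in library order, and Gfra2 in 28.9%, 25.5%, 19.2% and 33.3%. Unthinned, Ngfr was seen in 54.4%, 34.3%, 37.5% and 39.8%, with the unamputated library, the deepest, at the top (median depths of the class were 12034, 6327, 6708 and 4235 UMIs). Ntrk3 was seen in 6.39%, 3.90%, 18.2% and 8.16% after thinning, the same order as its CPM. In macrophage or monocyte-like cells, whose median depth was 5301.5 to 9656 UMIs, the thinned share of every one of the 9 genes except Nrg1 was at most 0.578%, and that of Nrg1 was 5.78% to 9.86%.

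Fibroblast-like cells, a stromal class, numbered 700, 257, 1810 and 2391 and showed fewer of these genes at high level. At 12 dpa, 4 of the 7 neurotrophic genes that passed the minimum were at least 2-fold lower than in the unamputated library, Ntrk2, Ntrk3, Gfra1 and Nrg1, where 7.83% of all genes were past 2-fold. At 17 dpa it was Nrg1 alone of 7, against 1.97% of all genes, and at 28 dpa Ntrk2 and Nrg1 of 7, both lower, against 8.47%. The median log2 ratio of the neurotrophic genes was -1.5, -0.037 and -0.29, against -0.17, -0.035 and -0.14 over all genes. Ntrk2, Ntrk3, Gfra1 and Nrg1 span 327, 562, 220 and 1070 kb. Of all genes longer than 200 kb, 91.9%, 84.5% and 94.6% were lower in this class at 12, 17 and 28 dpa. Their median log2 ratios were -0.68, -0.3 and -0.81, and the part of gene length was not tested. Ntrk2 stood at 43.3, 14.9, 39.7 and 18.0 CPM and Ntrk3 at 12.3, 2.38, 12.0 and 10.9 CPM in library order.

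These class values combine 3 clusters whose shares differed between libraries. Cluster 9, with Pi16, Lsamp and Gdf10, made up 60.3%, 30%, 54.2% and 38.9% of the fibroblast-like cells. Cluster 11, with Mfap5, Clec3b and Igfbp6, made up 23.1%, 58.0%, 23.0% and 48.8%. Cluster 12, with Hcn4, Foxd1, Fgl2 and Itih5, made up 16.6%, 12.1%, 22.8% and 12.2%. Cluster 11, which was the most common cluster at 12 and 28 dpa, was also the one with the least Ntrk2: 7.50, 5.02, 6.34 and 1.07 CPM, against 54.4, 19.4, 56.4 and 50 CPM in cluster 9. Cluster 11 alone had 0 of 2 neurotrophic genes past 2-fold at 12 dpa, and cluster 9 alone had 4 of 7. Gfra1, under the minimum of 5 CPM in cluster 11, had a log2 ratio of 0.63 there. The Ntrk2 log2 ratio at 28 dpa, -1.23 for the class, was -0.12 in cluster 9 alone and -2.03 in cluster 11 alone. Ntrk2 in cluster 12 stood at 77.2, 67.2, 46.1 and 31.4 CPM in library order. The part of the shift between clusters in the class values was not tested further. The Nrg1 ratio of the class at 12 dpa turned sign, to 0.96 with a looser filter on cells and to 0.43 with each cell named alone by its markers.

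Gfra1 set cluster 12 apart from the other fibroblast-like cells. It lay there at 175 CPM (156 to 196), 58.4 (35.7 to 90.2), 247 (232 to 263) and 182 (164 to 201), in library order, where the cluster held 31 cells at 12 dpa, its lowest library. Cluster 9 held 6.23 to 21.6 CPM and cluster 11 at most 3.65 CPM. A Gfra1 UMI was present in 75 of 116, 10 of 31, 285 of 413 and 145 of 292 cells of cluster 12, so the signal was not limited to a few cells. At 17 and 28 dpa the cluster lay above the 146 and 156 CPM of Schwann-like cells, and in the unamputated and 12 dpa libraries below their 224 and 219 CPM. Gfra2 and Ngfr were also highest in this cluster, Ngfr with the exception of 12 dpa: Gfra2 lay at 31.9, 38.0, 64.7 and 67.4 CPM in cluster 12 against at most 6.07 CPM in clusters 9 and 11, and Ngfr at 13.9, 0, 22.3 and 8.49 CPM against at most 1.21 CPM. The cluster detected 8 of the 10 fibroblast markers, but none was among its top 10 genes. The like cluster was named fibroblast-like with the looser filter on cells (947 cells) and with no doublets removed (1009 cells). At a Leiden resolution of 2 and with the stricter filter, the part with Foxd1 was named fibroblast-like (530 and 444 cells) and the part with Hcn4 was given no class (330 and 307 cells).

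**Figure D5:**
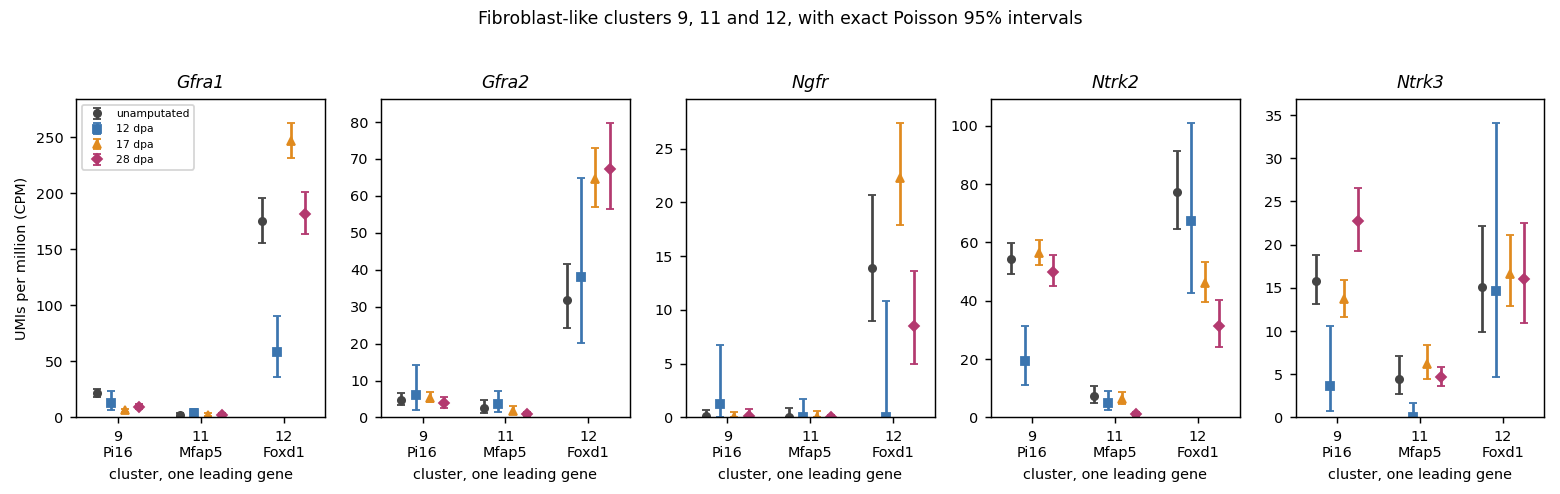
Level of the 5 receptors (CPM) in the 3 fibroblast-like clusters, by library, with exact Poisson 95% intervals. Gfra1 and Gfra2 are highest in cluster 12 in every library, and Ntrk2 is low in cluster 11 in every library.

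The partners of these genes were uneven in Schwann-like cells. Erbb3, the Nrg1 receptor of Schwann cells, lay at 267, 260, 285 and 326 CPM in library order, and its co-receptor Erbb2 at 22.5, 25.4, 29.1 and 16.1 CPM. Ret, the kinase of the GDNF receptors, gave 0, 0, 0 and 1 UMI. Ncam1, the other GDNF signalling partner, was present at 330, 313, 335 and 236 CPM, and Gfra3, the artemin receptor, at 137, 108, 124 and 124 CPM. Sort1, which pairs with p75, lay at 84.9, 86.0, 92.7 and 97.8 CPM. Nrtn, the Gfra2 ligand, was found in hair follicle or nail keratinocyte-like cells, at 13.1, 42.8, 42.8 and 21.5 CPM in library order. Nrtn was higher than in the unamputated library in 6 of 6, 3 of 3 and 4 of 4 classes that passed the minimum at 12, 17 and 28 dpa, by at most 1.63 on the log2 scale. Nrtn spans 6.21 kb, and genes under 10 kb had median log2 ratios of 0.11, 0.082 and 0.18 in the hair follicle or nail class; the part of gene length was not tested.

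Of the other 38 genes of the same pathways, 24, 23 and 24 passed the minimum in Schwann-like cells at 12, 17 and 28 dpa. At 12 dpa, 1 of 24 was past 2-fold, against 5.11% of all genes: Egfr, from 0.278 to 5.09 CPM. At 17 dpa, 4 of 23 were, against 10.6% of all genes: Pcsk5, a convertase that cuts neurotrophin precursors, was higher (70.1 to 159 CPM), and Plat, a plasminogen activator (93.2 to 45.0 CPM), Artn and Nrg3 were lower. At 28 dpa, 4 of 24 were, against 12.6% of all genes: Cntf, a Schwann cell factor for motor neurons (11.7 to 30.9 CPM), and Clcf1 (3.06 to 7.43 CPM) were higher, and Artn and Nrg3 lower. Artn went from 19 UMIs in the unamputated library to 0 and 1 at 17 and 28 dpa, and Nrg3 from 21 to 0 and 1; these, Egfr and Clcf1 are named because the counts are small, after their values were seen.

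In fibroblast-like cells Nrg2, another neuregulin, was the 1 gene past 2-fold of 21 at 12 dpa, against 7.83% of all genes, and of 22 at 17 dpa, against 1.97%, at 7.31, 1.79 and 2.73 CPM in the unamputated, 12 and 17 dpa libraries. At 28 dpa, 5 of 21 were, against 8.47% of all genes: Pcsk6, a relative of Pcsk5, was higher (19.8 to 61.5 CPM), and Ncam1 (26.6 to 11.5 CPM), Pcsk5 (160 to 69.1 CPM), Sorcs2, a p75 partner (62.9 to 18.2 CPM), and Nrg2 (7.31 to 1.88 CPM) were lower. Pcsk5 thus stood higher at 17 dpa in Schwann-like cells and lower at 28 dpa in fibroblast-like cells than in the unamputated library, on separate days and in separate classes. Ncam1, Pcsk5, Sorcs2 and Nrg2 span 297, 405, 381 and 180 kb, and Pcsk6, which was higher, 189 kb. In fibroblast-like cells at 28 dpa, 94.6% of genes over 200 kb and 84.4% of genes of 50 to 200 kb were lower. The part of gene length was not tested.

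The genes whose level followed each neurotrophic gene most closely were read from 67 sums of 1 class in 1 library, as Pearson's r of log2(CPM + 1). The sums of 1 library share its depth and preparation, so the coefficients are descriptions. Gdnf was nearest to Fam178b (0.827), Cadm4 (0.813) and Nlgn3 (0.806), and Ngfr to Cadm4 (0.838) and Adam11 (0.819). Gfra1 was nearest to 4930570G19Rik (0.874) and Abca8a (0.860), and Gfra2 to Pcdh20 and Adamts20 (both 0.824). Ntrk3 was nearest to Egflam (0.901), and Ntrk2 to Fjx1 (0.908) and Kctd15 (0.902). Bdnf was also nearest to Fjx1 (0.853), and Ntf3 to Pitpnm3 (0.874). Nrg1 had the loosest likeness, with Pla2g4a (0.764) first.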

How the data were processed

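The authors deposited raw UMI counts per gene and cell for each library, made with Cell Ranger 7.1.0 against mm10 (GRCm38), per the submitters' processing notes. Whether intronic reads were counted is not given in the sources used here. Kept cells had 500 or more genes, 1000 or more UMIs and no more than 10% mitochondrial UMIs, after the barcodes with the highest Scrublet scores were removed at 0.8% per 1000 barcodes (7.05% to 12.8% by library). Cells were scaled to 10000 UMIs and clustered with scanpy 1.11.5 and leidenalg 0.10.2 (2000 variable genes without the 47 pathway genes, 30 components, resolution 1). Clusters were named from 165 fixed marker genes of 23 classes, 3 detected markers being needed. UMIs were summed per class and library for classes of at least 50 cells and given as CPM, with exact Poisson 95% intervals. Log2 ratios used a pseudocount of 1 CPM and folds are ratios of CPM. A gene counted as past 2-fold at a log2 ratio of 1 in size, with a minimum of 5 CPM in either library; the calculation was tested on simulated data. Gene positions came from GENCODE M21 (32235 of 32285 identifiers matched), and promoters from RefSeq, which matched 6 of the 9 genes. All 9 genes are named. Other pathway genes were named when past 2-fold at 20 CPM or more, or as partners. Artn, Nrg3, Egfr, Clcf1 and Nrg2 were named below that level. The 3 genes of highest correlation were considered for each of the 9 genes. The genes and lists were chosen with earlier results of these data known. The spread between animals cannot be measured with 1 library per group. Results for a few partner and marker genes are not reported here.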

Additional observations from a re-analysis of the deposited data

Results flagged for a closer look

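An unnamed cluster outside the named classes held more Ntrk3 at 28 dpa than any named class. The cluster was led by Hhip, Gpc5, Nrg3 and Rorb, was given no class by the marker lists, and numbered 4, 7, 16 and 45 cells in the unamputated, 12, 17 and 28 dpa libraries. At 28 dpa Ntrk3 stood at 418 CPM there, from 100 UMIs in 19 of the 45 cells, against 68.1 CPM in Schwann-like cells of that library. In the unamputated, 12 and 17 dpa libraries it stood at 45.6, 265 and 35.4 CPM, from 2, 15 and 3 UMIs, against 66.0, 23.8 and 173 CPM in Schwann-like cells. When no doublets were removed, the like cluster held 51, 7, 40 and 81 cells, of which 46, 0, 25 and 31 had been marked as doublets, and Ntrk3 stood at 459, 265, 102 and 328 CPM. The unamputated value thus went from 45.6 to 459 CPM with the marked cells kept.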

How the results depend on the processing

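Of 48 log2 ratios past 2-fold that were followed, 42 kept their direction under every alternative that gave a value and 6 did not. These 48 leave out some ratios past 2-fold, such as that of Nrg1 in B lineage-like cells at 28 dpa (2.09). Of 395 alternative values, 315 moved little, 73 moved and 7 turned their sign. The number of neurotrophic genes past 2-fold in Schwann-like cells was 1 at 17 dpa when no doublets were removed, and at 28 dpa 1 with the mean of per-cell CPM, 1 with a minimum of 20 CPM and 1 without the myelinating sub-cluster. In fibroblast-like cells it was 2 with a minimum of 20 CPM and 0 in cluster 11 alone at 12 dpa. At 17 dpa it was 2 with the stricter filter on cells, 0 with a minimum of 20 CPM and 2 in cluster 9 alone. At 28 dpa it was 1 with the looser filter, with each cell named alone, with the mean of per-cell CPM and with a minimum of 20 CPM. Signs turned for Nrg1 in Schwann-like cells without the myelinating sub-cluster (log2 ratios of 0.06 at 17 dpa and 0.32 at 28 dpa). At 12 dpa in fibroblast-like cells they turned for Gfra1 in cluster 11 alone (0.63), where Gfra1 lay under the minimum of 5 CPM. Nrg1 turned in those cells with the looser filter (0.96) and with each cell named alone (0.43). In hair follicle or nail keratinocyte-like cells, signs turned for Gfra1 at 17 dpa with the looser filter (-0.85). There they also turned for Nrg1 at 28 dpa with each cell named alone (0.34). The cause was not tested, except that leaving out a cluster uses fewer cells. The share of UMIs in the leading class moved little in 114 of 180 alternatives. The settings by cluster and sub-cluster were chosen after seeing the data. Leaving out Schwann-like cells with 3 or more markers of another class gave no value, because 91.3% to 98.2% of them carry such markers. No paired analysis was possible because each group has 1 library. Depth limits the sparse genes in Schwann-like cells, Bdnf, Nrg1, Ntf3 and Ntrk2, where single cells hold much of the count.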
